A study of Mus musculus with 6 samples.

Results

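The inverse-BAR (I-BAR) genes Baiap2l1, Baiap2, Baiap2l2 and Mtss1 were examined in sorted microglia, the resident macrophages of the brain. The 4 genes were taken by symbol from a table of 20129 genes, and each had 1 row. Baiap2l1 was chosen by its measured level, the CPM values that are higher in mice lacking interleukin-3, and the other members because they encode relatives of its protein. The contrast of genotypes therefore chose the set, and the members' differences between genotypes are given as a description, without a p-value.

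The sort kept live (7AAD-negative) cells bearing CD45 and CD11b from brains of C57BL6/J mice aged 5 months. All mice carried 5xFAD, a set of human transgenes with familial Alzheimer mutations that is driven by the neuronal Thy1 promoter, so both groups were amyloid-bearing and no mice free of the transgenes were compared. One group was 5xFAD (replicates 4, 5 and 6) and the other was Il3-/-5xFAD (replicates 1, 2 and 3), which in addition lacks the cytokine gene Il3 in every cell of the body. Each of the 6 libraries was a pool of 4 mice, 2 male and 2 female, so the spread between libraries is one between pools. The unit throughout is CPM: how many of each 1000000 gene-assigned reads of a library fell to the gene. Il3 itself had 1.93, 2.08 and 0.771 CPM in the 5xFAD libraries and 0 in all 3 Il3-/-5xFAD libraries, where a count of 0 allows up to 0.0909 to 0.107 CPM.

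I-BAR domains are actin-linked modules that bind membranes rich in phosphoinositides and bend them outward, toward filopodia and ruffles. Classical BAR domains bend membranes inward. BAIAP2 (IRSp53) links the small GTPases RAC1 and CDC42 to the WAVE complex and other actin regulators through its SH3 domain. BAIAP2L1 (IRTKS) also has an I-BAR and an SH3 domain and was found as a substrate of the insulin receptor kinase. BAIAP2L2 (Pinkbar) forms flatter membrane sheets in epithelia, and MTSS1 (MIM) binds actin monomers through a WH2 motif. Microglia use such protrusions to survey tissue and to enclose particles.

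The start of a gene is shown for the member that stood apart between the genotypes and for the relative it is named after, which did not. RefSeq (GRCm38.p6) held a promoter window for 2 of the 4 members, Baiap2l1 and Baiap2. Each window runs from 250 bases before to 50 bases after the annotated start, 5′ to 3′ on the gene's strand. The Baiap2l1 window is chr5:144358063-144358362 on the minus strand and the Baiap2 window is chr11:119942842-119943141 on the plus strand, in a build other than the mm9 of the deposited table. Capitals mark GC boxes (GGGCGG on either strand) and, in Baiap2l1, also the E-box CAGGTG.
Baiap2l1: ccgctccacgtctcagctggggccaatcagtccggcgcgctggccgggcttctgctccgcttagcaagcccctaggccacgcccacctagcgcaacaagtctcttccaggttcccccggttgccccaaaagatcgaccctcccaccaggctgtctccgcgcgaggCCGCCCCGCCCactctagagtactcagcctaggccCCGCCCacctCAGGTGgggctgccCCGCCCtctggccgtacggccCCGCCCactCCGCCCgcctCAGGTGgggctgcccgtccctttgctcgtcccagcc
Baiap2: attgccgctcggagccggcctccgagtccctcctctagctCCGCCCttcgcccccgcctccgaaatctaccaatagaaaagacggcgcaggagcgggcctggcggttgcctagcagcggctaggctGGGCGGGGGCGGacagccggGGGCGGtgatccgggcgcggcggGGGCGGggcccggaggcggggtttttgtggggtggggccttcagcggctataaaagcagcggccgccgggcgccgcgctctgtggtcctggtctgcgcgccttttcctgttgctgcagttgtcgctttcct
Both windows are rich in CpG, with 25 CpG in Baiap2l1 and 34 in Baiap2 against a median of 7 over the windows of 27025 genes. A GC box, the site of SP1-type factors, was found 6 times in Baiap2l1 and 5 times in Baiap2 (neighbouring matches may overlap). Of all windows, 35.9% held at least 1, 2.78% at least 5 and 1.36% at least 6. The E-box CAGGTG was found at positions 211 and 265 of the Baiap2l1 window, counted from its 5′ end, and was not found in that of Baiap2, while 20% of all windows held it and 2.85% held at least 2. Both of its copies lie in a stretch of 18 bases, cctcaggtggggctgccc, that occurs in the Baiap2l1 window from positions 208 and 262. A repeat of that length or longer was present in 1.71% of all windows. A TATA box (TATAAA) was found once in Baiap2 and not in Baiap2l1 (14.2% of all windows). Neither window held GAGGAA, a core of the myeloid factor PU.1 (28.3%), or the AP-1 site TGANTCA (7.93%). Such matches describe letters in these windows only.

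Baiap2l1 was low but measured in 5xFAD and higher in Il3-/-5xFAD. Its level was 0.536, 1.71 and 1.09 CPM in 5xFAD replicates 4, 5 and 6, from 15, 50 and 41 reads. In Il3-/-5xFAD replicates 1, 2 and 3 it was 8.73, 8.56 and 15.2 CPM, from 260, 241 and 503 reads. The groups lay far apart: the lowest Il3-/-5xFAD library was 5.01 times the highest 5xFAD library. Group means were 1.11 ± 0.587 CPM in 5xFAD and, without interleukin-3, 10.8 ± 3.81 CPM (SD, n = 3), a ratio of 9.76. After a log2(CPM + 1) transform, in which the added 1 shrinks differences of low genes, the difference was 2.48 ± 0.29 (SE from limma), the fifth highest of 11900 tested genes. With a pseudocount of 0.25 it was 3.07, and edgeR on the recovered reads gave 3.28.

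Within each genotype the Baiap2l1 level also differed between pools by more than counting error. Exact 95% binomial intervals, which cover counting error only, ran from 0.300 to 0.885 CPM in 5xFAD replicate 4 and from 1.27 to 2.25 CPM in 5xFAD replicate 5. In Il3-/-5xFAD replicate 3 the interval was 13.9 to 16.6 CPM, above those of replicates 1 (7.70 to 9.86 CPM) and 2 (7.51 to 9.71 CPM). Leaving out each library in turn moved the log2 difference between 2.23 (without Il3-/-5xFAD replicate 3) and 2.68 (without 5xFAD replicate 5). Il3-/-5xFAD replicate 3 also stood apart over all genes, with a read in 14435 genes against 17245 and 16584 in replicates 1 and 2. Its chi-square per degree of freedom, a measure of spread beyond counting error, was 46.9 and 42.7 against replicates 1 and 2. Between those 2 it was 25.9, and between 5xFAD pairs 22.1 to 30.6.

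Mtss1, the actin-monomer-binding member, was the most abundant per read. It was at 60.6, 59.7 and 49.4 CPM in 5xFAD replicates 4, 5 and 6 and at 79.3, 64.1 and 64.1 CPM in Il3-/-5xFAD replicates 1, 2 and 3. The groups did not overlap, but the lowest Il3-/-5xFAD library was only 1.06 times the highest 5xFAD library. The log2 difference was 0.28 ± 0.12 (SE), between 0.18 without Il3-/-5xFAD replicate 1 and 0.34 without 5xFAD replicate 4.

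Baiap2, the RAC1 and CDC42 effector, stood slightly lower in Il3-/-5xFAD. Its level was 15.2, 15.1 and 19.1 CPM in 5xFAD replicates 4, 5 and 6 and 11.2, 15.1 and 14.7 CPM in Il3-/-5xFAD replicates 1, 2 and 3. The groups met at their edges, with 443 reads in 5xFAD replicate 5 and 426 in Il3-/-5xFAD replicate 2 giving almost the same level. The log2 difference was -0.25 ± 0.17 (SE). It was -0.13 without Il3-/-5xFAD replicate 1 and -0.15 without 5xFAD replicate 6, the lowest and the highest library.

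Baiap2l2, the member known from epithelia, varied more between pools than between genotypes. It was at 8.37, 23.8 and 17.2 CPM in 5xFAD replicates 4, 5 and 6 and at 7.25, 15.5 and 15.3 CPM in Il3-/-5xFAD replicates 1, 2 and 3. Each group held 1 low library, and the groups overlapped, though 5xFAD replicates 5 and 6 lay above every Il3-/-5xFAD library. The highest 5xFAD library was 2.84 times the lowest, against 1.26 times for Baiap2 and 1.23 times for Mtss1. Its spread within genotypes, an SD of 0.65 on the log2 scale, exceeded that of 98.6% of tested genes, while the SD of Baiap2l1 (0.42) exceeded that of 92.4%, Baiap2 (0.20) 62.2% and Mtss1 (0.17) 51.4%. The log2 difference was -0.31 ± 0.34 (SE) and changed sign without Il3-/-5xFAD replicate 1 (0.02).

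**Figure D1:**
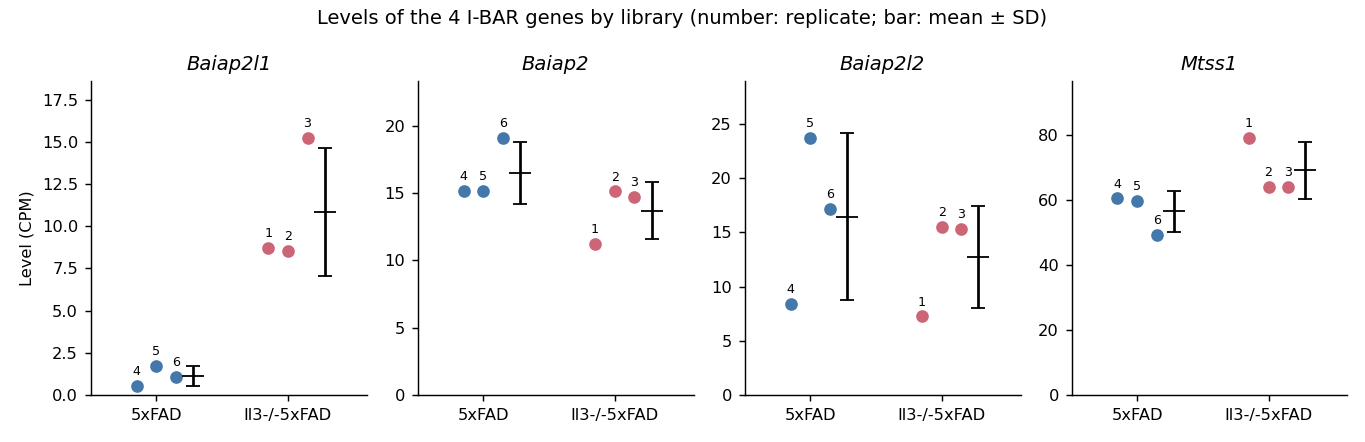
Level of each I-BAR gene in CPM (vertical axis from 0, own scale per gene) in the 3 5xFAD and 3 Il3-/-5xFAD libraries; points are libraries, numbered by replicate, and bars are mean ± SD. Baiap2l1 runs from 0.536 to 1.71 CPM in 5xFAD and from 8.56 to 15.2 CPM in Il3-/-5xFAD, while Baiap2l2 spreads widely within both groups.

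All 4 members passed the filter on low values (at least 1 CPM in at least 3 libraries), Baiap2l1 by way of its 3 Il3-/-5xFAD libraries, which suffice alone. By limma on log2(CPM + 1) with Benjamini-Hochberg adjustment and a threshold of 0.05, 1 of the 4, Baiap2l1, was among the called genes, as the choice of the set implies, against 0.882% of all tested genes (105 of 11900, 30 higher and 75 lower). With no filter on low values Baiap2l1 was not called, and 8 genes were called in all. The groups did not overlap in 3 of the 4 members, against 21.2% of tested genes. Nothing is read from these counts, since the contrast chose the set.

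Per length of transcript, Baiap2l1 was a trace of the I-BAR transcripts in 5xFAD and overlapped the level of Baiap2 in Il3-/-5xFAD. Dividing CPM by the kilobases of the longest annotated transcript gave Baiap2l1 0.342 ± 0.181 CPM per kb in 5xFAD and 3.34 ± 1.17 CPM per kb in Il3-/-5xFAD (SD, n = 3). Baiap2 was at 4.11 ± 0.572 and 3.42 ± 0.533 CPM per kb. Baiap2l2 was at 7.22 ± 3.39 and 5.58 ± 2.07 CPM per kb, and Mtss1 at 11.4 ± 1.26 and 14.0 ± 1.78 CPM per kb. The order of mean levels was thus Mtss1, Baiap2l2, Baiap2 and Baiap2l1 in both genotypes. Neighbours in that order were not always separated: the libraries of Baiap2l2 and Baiap2 overlapped in both groups, those of Mtss1 and Baiap2l2 overlapped in 5xFAD, and those of Baiap2l1 and Baiap2 overlapped in Il3-/-5xFAD. With all exons of a gene merged into 1 length, Baiap2l2 stood above Mtss1 in 5xFAD (6.03 against 4.98 CPM per kb) and Baiap2l1 above Baiap2 in Il3-/-5xFAD (3.22 against 2.74 CPM per kb), so those orders depend on the transcript assumed.

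As a share of the summed CPM per kb of the 4 genes, Baiap2l1 made up 0.830%, 1.96% and 1.48% in 5xFAD replicates 4, 5 and 6. In Il3-/-5xFAD replicates 1, 2 and 3 it made up 10.9%, 10.1% and 16.7%. The shares did not overlap between groups, and with merged exon lengths the group means were 2.15% and 19.0%. The sum itself was 19.9, 26.8 and 22.7 CPM per kb in 5xFAD and 24.7, 26.2 and 28.1 CPM per kb in Il3-/-5xFAD, and these ranges overlapped.

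**Figure D2:**
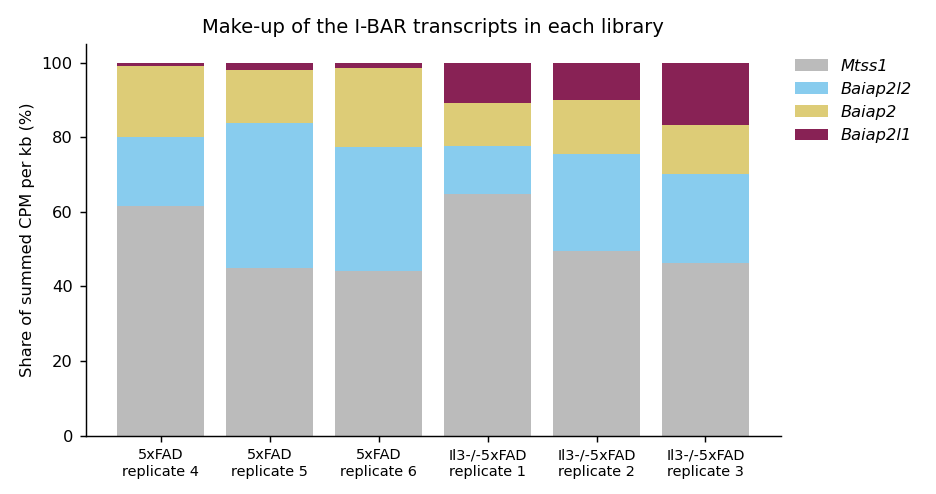
Stacked bars of the share (%) of each I-BAR gene in the summed CPM per kb of longest transcript, 1 bar per library. The Baiap2l1 segment is 0.830% to 1.96% in the 5xFAD libraries and 10.1% to 16.7% in the Il3-/-5xFAD libraries.

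Reads of the members could be told from those of related genes, with a small reservation for Baiap2l1. None of the stretches of 50 bases in GENCODE transcripts of the 4 members occurred in a transcript of another gene. Baiap2l1 overlaps 3 annotated genes on the opposite strand. It shares 49 of its 3366 exon bases (1.46%) with Bri3, a brain protein gene, 34 (1.01%) with the intronic transcript Gm15708 and 122 (3.62%) with Dmrt1i, which was not analysed here. The library kit keeps strand, but the counting mode is not given in the sources used here. Bri3 averaged 52.9 ± 2.38 CPM (SD, n = 3) in 5xFAD against 44.8 ± 7.67 CPM in Il3-/-5xFAD. Gm15708 was at 1.08 ± 0.325 and 1.27 ± 0.158 CPM. Neither passed the test (limma adjusted p of 0.337 and 0.853), and the part of reads from the opposite strand in the Baiap2l1 values was not tested.

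The genes around Baiap2l1 on chromosome 5 did not share its log2 difference of 2.48. The 20 nearest tested genes on each side, in RefSeq order, had differences between -0.57 and 0.48. Limma called 0 of these 40, where 0.882% of all tested genes were called, so that a count of 0 says nothing particular about them. Of the 40, 5 had an unadjusted p under 0.05, against 16.5% of all tested genes. Their median log2 difference was -0.01, against 0.00 over all tested genes. EdgeR and DESeq2 on the recovered reads also called none. Without Il3-/-5xFAD replicate 3, when limma called 587 genes in all, 3 of the 40 were called, Bri3 and Atp5j2 lower and Trrap higher. Chromosome 5 held 6 called genes among 759 tested, Baiap2l1 included, against 0.882% of all tested genes. The nearest other called gene was Prkab1, 274 tested genes away.

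**Figure D3:**
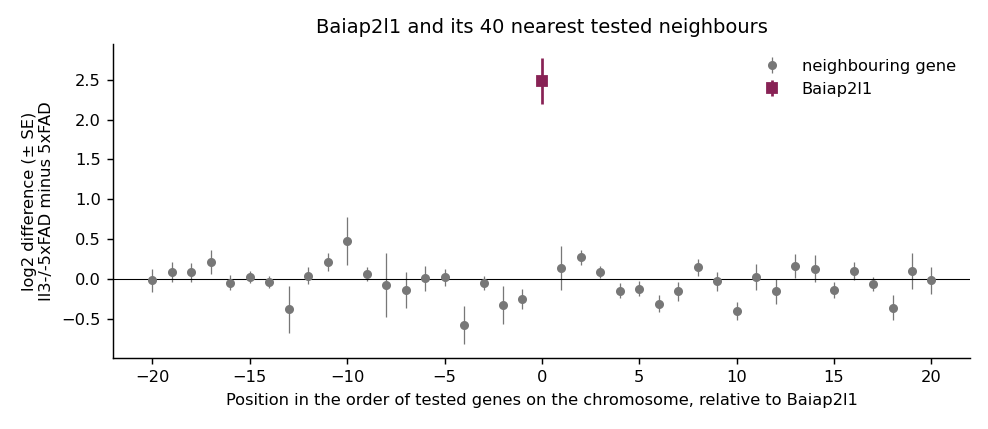
Difference in log2(CPM + 1) between Il3-/-5xFAD and 5xFAD (± SE) for Baiap2l1 and the 40 nearest tested genes, by their position in the gene order of chromosome 5. The neighbours lie between -0.57 and 0.48, and Baiap2l1 at 2.48.

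The listed partners of I-BAR proteins cover the actin machinery, the insulin receptor and scaffolds. Of 61 genes, 46 were tested and 0 were called by limma, where 0.882% of all tested genes were called, so that a count of 0 in a list of this size says nothing particular about it. An unadjusted p under 0.05 was reached by 13 of the 46, against 16.5% of all tested genes. The median log2 difference was -0.03, with 18 of 46 positive, against 0.00 and 49.9% of all tested genes. The listed genes below the filter included most of the synaptic scaffolds that bind BAIAP2 in neurons (Shank1, Shank2, Shank3 and the receptor gene Bai1 that gave the family its name). EdgeR called 0 and DESeq2 called 2, Cyfip2 and Irs2.

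Among the GTPases that I-BAR proteins bind, Rac1 averaged 456 ± 5.97 CPM (SD, n = 3) in 5xFAD against 444 ± 19.0 CPM in Il3-/-5xFAD, and Cdc42 670 ± 13.6 against 647 ± 19.7 CPM. By limma the adjusted p was 0.843 for Rac1 and 0.798 for Cdc42. The fifth I-BAR gene, Mtss1l, was low in both genotypes, at 1.81 ± 0.621 and 1.46 ± 0.415 CPM (limma adjusted p = 0.799). Of 9 tested genes of the WAVE complex, which starts branched actin networks below the membrane, none passed. Nckap1l, its haematopoietic subunit, was at 989 ± 11.4 and 1100 ± 91.1 CPM, and Cyfip1 at 895 ± 45.8 and 976 ± 10.3 CPM. The lowest adjusted p of the whole partner list was that of Cyfip2, named here after its values were seen: 29.4 ± 9.67 CPM in 5xFAD against 13.3 ± 3.25 CPM in Il3-/-5xFAD, a log2 difference of -1.05 ± 0.24 (limma adjusted p = 0.0611). Cyfip2 passed when 5xFAD replicate 4 was left out and also when Il3-/-5xFAD replicate 1 was (limma adjusted p of 0.00841 and 0.0355).

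Of 12 genes of WASP and the Arp2/3 complex, which nucleates actin branches, none passed, 11 differences were negative, and all lay between -0.30 and 0.06. Actr2 averaged 624 ± 26.7 CPM (SD, n = 3) in 5xFAD against 614 ± 11.2 CPM in Il3-/-5xFAD, and Arpc1b 426 ± 16.6 against 394 ± 43.0 CPM. Of 12 tested genes for filament elongation, capping and bundling, none passed; the capping subunit gene Capza2 was at 636 ± 17.2 and 643 ± 6.37 CPM and the bundling gene Fscn1 at 601 ± 23.4 and 669 ± 71.6 CPM. The insulin receptor gene Insr, whose kinase acts on BAIAP2L1, averaged 48.1 ± 4.15 CPM against 62.2 ± 10.1 CPM, differing by 0.35 ± 0.12 on the log2 scale (limma adjusted p = 0.169). Irs2, which encodes a docking protein of that receptor, was at 21.3 ± 0.502 and 30.2 ± 5.60 CPM (0.47 ± 0.14, limma adjusted p = 0.117). For both, the groups did not overlap, as in 21.2% of all tested genes, and no gene of this group passed by limma. Of the 3 tested scaffold and membrane partners none passed; Atn1 was at 84.3 ± 1.05 and 94.2 ± 4.07 CPM and Lin7c at 76.6 ± 1.47 and 75.8 ± 4.28 CPM.

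Other families of membrane-bending BAR proteins held 2 called genes of 40 tested, both lower in Il3-/-5xFAD, where 0.63% of all tested genes were called lower. Pstpip1, an F-BAR protein of leukocytes that binds pyrin, fell from 30.7 ± 3.94 CPM in 5xFAD to 16.5 ± 1.88 CPM (SD, n = 3) in Il3-/-5xFAD, a log2 difference of -0.85 ± 0.14 (limma adjusted p = 0.0225). Acap1, which encodes an ARF6 GTPase-activating protein with a BAR domain, fell from 24.5 ± 6.36 to 11.1 ± 3.24 CPM (-1.07 ± 0.22, limma adjusted p = 0.0469). Neither call held when 5xFAD replicate 5, 5xFAD replicate 6 or Il3-/-5xFAD replicate 2 was left out (with fewer pools, 36, 11 and 41 genes were called in all), and edgeR called Pstpip1 alone. The T and NK cell markers were lower in the same libraries: their summed level was 76.0 to 162 CPM in 5xFAD and 33.7 to 50.7 CPM in Il3-/-5xFAD, 3 of 6 were called lower, and none was at 0. The neutrophil markers summed to 1141 to 3075 and 198 to 772 CPM, with 5 of 9 tested genes called lower, and the monocyte markers to 145 to 284 and 73.0 to 148 CPM, with 2 of 6 called lower. The part of these cells in the falls of Pstpip1 and Acap1 was not tested, and in a bulk sample fewer cells of a type and less RNA per cell cannot be told apart.

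**Figure D4:**
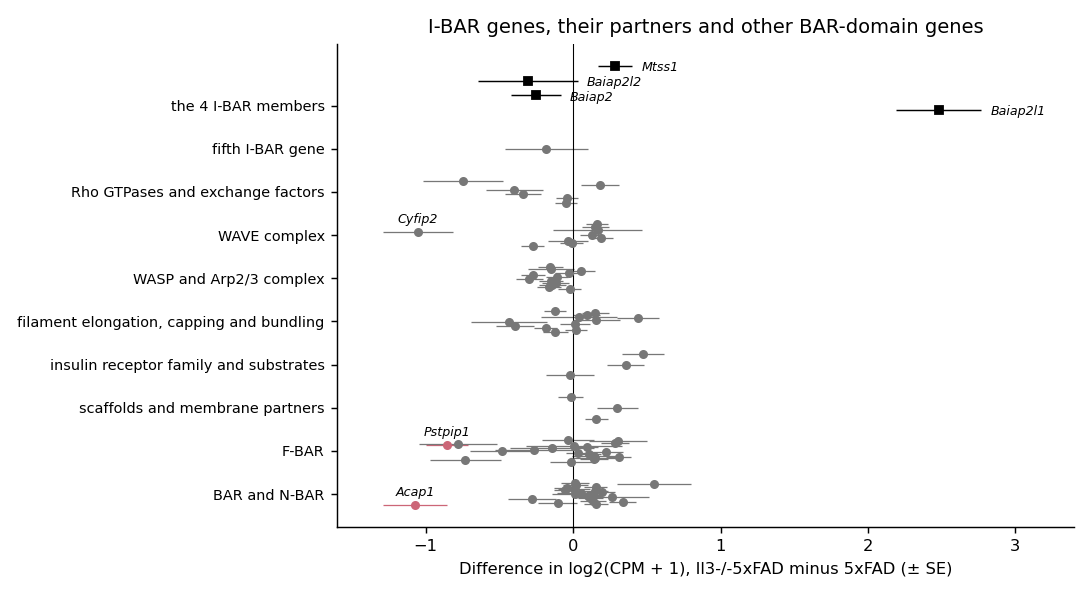
Difference in log2(CPM + 1), Il3-/-5xFAD minus 5xFAD (± SE), for the 4 I-BAR genes (black squares), their partners by role and other BAR-domain genes (circles; coloured where limma called the gene). Pstpip1 (-0.85) and Acap1 (-1.07) are the called genes, Cyfip2 (-1.05) is labelled, and Baiap2l1 lies at 2.48.

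Markers of the labelled cell type were high in every library: the sum of 12 microglial genes, led by Csf1r, lay between 38430 and 40207 CPM in 5xFAD libraries and between 39760 and 43315 CPM in Il3-/-5xFAD libraries, and none was called. Markers of other cell types were lower. The epithelial and ependymal list, with Cdh1 the highest, summed to 8.69 to 16.1 CPM in 5xFAD and 3.83 to 6.11 CPM in Il3-/-5xFAD. The choroid plexus list, led by Ttr, likewise summed to 184 to 522 and 64.1 to 132 CPM. Of its 5 tested genes 2 were called lower, against 0.63% of all tested genes. The neuronal list summed to 2.97 to 5.65 and 3.02 to 3.85 CPM and the list of pericytes and smooth muscle to 6.01 to 10.9 and 4.62 to 10.3 CPM. Within that last list Acta2, the smooth muscle actin gene, was named after its values were seen: it was at 0.465, 1.13 and 0.399 CPM in 5xFAD replicates 4, 5 and 6 against 4.20, 2.45 and 2.18 CPM in the knockout libraries, higher there without overlap, though it did not pass the test (log2 difference 1.24 ± 0.30, limma adjusted p = 0.0734). The other 3 tested genes of the list had negative differences, and the groups did not overlap in 21.2% of all tested genes. No listed marker was at 0 in every library, and the part of these cell types in the members' values was not tested.

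The profile of Baiap2l1 over the 6 libraries was compared with those of all tested genes by the Euclidean distance between log2(CPM + 1) values, each gene centred on its own mean; the median gene lay 3.18 from it. Of its relatives, Mtss1 lay nearer than the median gene, at 2.87 (rank 1040 of 11900), while Baiap2 at 3.45 and Baiap2l2 at 3.53 lay farther. These distances mainly restate the sign of each relative's log2 difference: 0.28 for Mtss1, -0.25 for Baiap2 and -0.31 for Baiap2l2. No likeness between the members is read from them, since the same contrast chose the set. The nearest were genes that also stood apart between the genotypes, as the measure favours. The nearest, 2610507I01Rik on chromosome 11 (0.967), was at 0.0715, 0 and 0 CPM in 5xFAD replicates 4, 5 and 6 and at 5.98, 5.50 and 5.49 CPM in Il3-/-5xFAD replicates 1, 2 and 3. Next came the smooth muscle genes Myh11 (1.37), which encodes a myosin heavy chain, and Tagln (1.37), which encodes the actin-binding protein transgelin. Myh11 was at 0.179, 0.273 and 0.293 CPM in 5xFAD replicates 4, 5 and 6 against 4.70, 1.88 and 3.27 CPM in the knockout libraries, and Tagln at 0.572, 0.615 and 0.691 against 2.38, 3.12 and 5.58 CPM. Rpl26 (1.53) and Nlrp1a (1.53), an inflammasome sensor gene, completed the 5. Both lie on chromosome 11, as do 2610507I01Rik and the deleted Il3, while Myh11 lies on chromosome 16 and Tagln on chromosome 9. The part of that shared chromosome in these profiles was not tested. Of the stretches of 50 bases of Rpl26, 22.7% are shared with other genes, Gm15772 on chromosome 5 among them. Gm15772 was called lower (log2 difference -6.29, limma adjusted p = 3.54e-10), and the part of shared reads in the Rpl26 values was not tested.

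Each relative had other neighbours in profile. The 5 genes nearest to Baiap2l2 were Pacsin1 (0.382), Gm1673, Acaca, Lrguk and Gm17306 (0.485), at a median over all genes of 1.43. Pacsin1, an F-BAR gene of endocytosis on chromosome 17, was at 9.55, 22.5 and 16.0 CPM in 5xFAD replicates 4, 5 and 6 and at 9.27, 18.0 and 15.1 CPM in Il3-/-5xFAD replicates 1, 2 and 3. It was thus low in the same 2 libraries as Baiap2l2 and high in 5xFAD replicate 5. The summed neutrophil markers were 1141, 3075 and 2091 CPM in 5xFAD replicates 4, 5 and 6, the order of Baiap2l2 there. They were 712, 198 and 772 CPM in the Il3-/-5xFAD libraries, where the order differed. Of the 9 tested, 5 were called lower, against 0.63% of all tested genes. The monocyte list and the list of pericytes and smooth muscle also had the order of Baiap2l2 in 5xFAD only. The astrocyte list had it in both groups, at 141, 170 and 158 CPM in 5xFAD and 130, 150 and 137 CPM in Il3-/-5xFAD. The part of these cell types in the spread of Baiap2l2 was not tested. Nearest to Mtss1 were Mapk8ip3 (0.0714), Adck5, Epc2, Zbtb49 and Mpi (0.146; median gene 0.613), and nearest to Baiap2 were Rpl38-ps2 (0.0998), Gm10443, Larp1b, Hscb and Ptgfrn (0.134; median gene 0.687). The likeness is over 6 libraries.

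**Figure D5:**
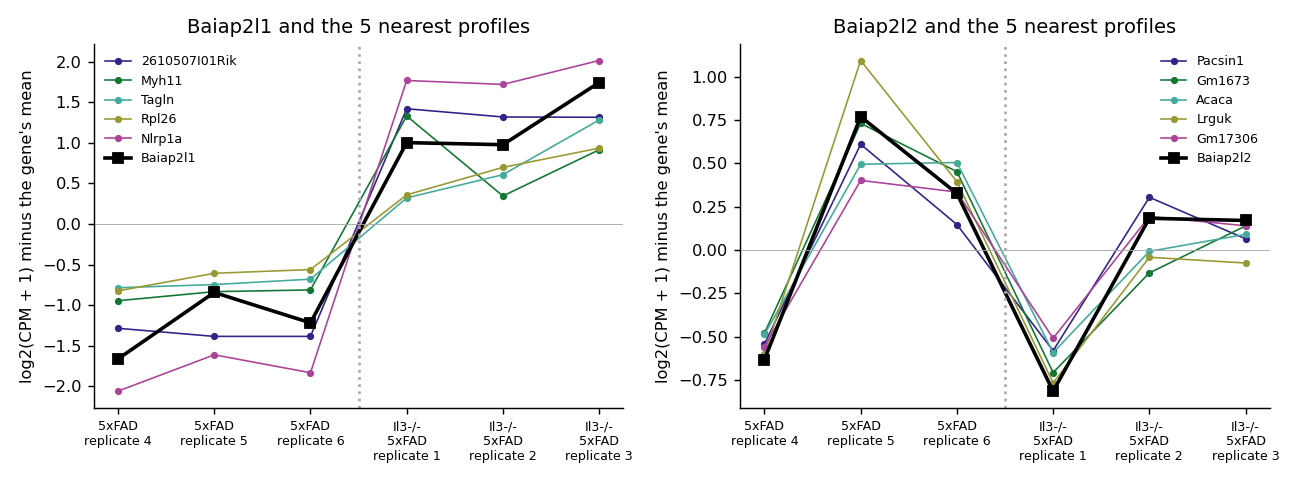
log2(CPM + 1) of Baiap2l1 (left) and Baiap2l2 (right) and of the 5 genes with the nearest profiles, each minus its mean over the 6 libraries; lines join the values of a gene and carry no order of replicates. The genes on the left split by genotype, and those on the right are low in 5xFAD replicate 4 and Il3-/-5xFAD replicate 1.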

How the data were processed

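The authors deposited 1 table of CPM (counts per 1000000), 20129 genes by 6 libraries. Per the submitters' processing notes STAR, HTSeq, edgeR and mm9 were used, without versions or roles. Annotation and counting mode were not given in the sources used here. Every value was a whole multiple of 1 read (100% within 0.01 reads), so reads were recovered, from 27970850 to 37605490 per library. One read was worth 0.0266 to 0.0358 CPM. Groups and replicate numbers came from the titles.

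The 11900 genes reaching 1 CPM in 3 or more libraries were fitted on log2(CPM + 1) over all 6 libraries with limma 3.58.1 (R 4.3.3; intensity trend, two-sided), with Benjamini-Hochberg adjustment over all of them. Whether pools are independent beyond their labels is not stated, so p-values measure the spread between these 3 and 3 pools. On simulated reads for 11900 genes of this comparison, 88% of 2-fold and 98% of 4-fold changes were recovered, with 15 false calls among 201. The simulation gave every gene the same dispersion and no differences in cell make-up between pools. In the data the spread differs between genes, so these shares need not hold for the real pools. Other settings were a pseudocount of 0.25 or 5, no filter, a required mean of 5 CPM, rescaling by median ratios, edgeR 4.0.16 and DESeq2 1.42.0 on the recovered reads (both on the filtered genes), and leaving out each library.

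Members and lists were chosen with earlier results of these data known. Named were the members, Il3, called genes of each list (at most 4, otherwise the 2 most abundant), the nearest chromosome neighbours, the 5 nearest profiles and leading markers. RefSeq matched 18768 genes. Lengths came from GENCODE M21 (GRCm38).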

Additional observations from a re-analysis of the deposited data

How the results depend on the processing

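Over all tested genes, 105 were called. The count was 8 with no filter, 68 with a mean of at least 5 CPM, 64 with median-ratio rescaling, 60 by edgeR and 605 by DESeq2, and with 1 library left out it lay between 11 (lacking 5xFAD replicate 6) and 587 (lacking Il3-/-5xFAD replicate 3), with 36 lacking 5xFAD replicate 5, 41 lacking Il3-/-5xFAD replicate 2 and 224 lacking 5xFAD replicate 4. Of the calls, 30 of 105 were higher in Il3-/-5xFAD, against 6 of 8 with no filter, 25 of 60 by edgeR and 194 of 605 by DESeq2. Of the partner genes, 0 were called, 2 by DESeq2 and 0 to 3 without 1 library (3 without Il3-/-5xFAD replicate 3). Of the other BAR-domain genes, 2 were called, against 0 with no filter, 1 each with a mean of at least 5 CPM, with median-ratio rescaling and by edgeR, 5 by DESeq2 and 0 to 4 without 1 library. Of the neighbours of Baiap2l1, 0 to 3 were called without 1 library, and 0 with 10 or 40 genes on each side. Baiap2l1 was called in 12 of the 13 other settings and not with no filter. The log2 difference of Baiap2l1, 2.48, was 3.07 and 1.35 with pseudocounts of 0.25 and 5, 3.28 by edgeR and 3.29 by DESeq2. That of Baiap2l2, -0.31, ran from -0.702 to 0.0222 with 1 library left out, positive only when it was Il3-/-5xFAD replicate 1. With merged exons the share of Baiap2l1 was 2.15% in 5xFAD and 19.0% in Il3-/-5xFAD, against 1.42% and 12.5%. The differences of Baiap2 and Mtss1 kept their direction in all settings run. Fewer genes are tested with a mean filter, and fewer pools without a library; otherwise the cause was not tested. No paired analysis was possible because the groups share no replicate number. In 5xFAD the 15 to 50 reads of Baiap2l1 limit the precision of its fold.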
